A study of Mus musculus with 96 samples.

Results

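The genes described here are 10 markers of disease-associated microglia, the activated state of the brain's resident macrophages: Trem2, Tyrobp, Fcer1g, Itgax, Clec7a, Lyz2, Cd68, Cst7, Cd52 and Apoe. They were listed by name, as genes known from activated microglia, with earlier results of these data known. Of the 10 genes, 9 were analysed among the 35486 gene symbols of the count table, and Clec7a was not analysed here.

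The series measured mRNA in 96 libraries from 38 male C57BL/6J mice, to ask how age and plasma of young mice act on 3 brain regions. The first of its experiments took all 3 regions from each of 29 mice. Its groups were 18-month mice with 7 daily injections of plasma from young mice (5 mice) or of PBS, the saline vehicle (4 mice), 22-month mice with the same plasma (3 mice) or PBS (3 mice), 19-month mice with 24 daily injections of plasma (long plasma, 3 mice) or PBS (long PBS, 4 mice), and 3 naive (uninjected) mice aged 18 months with 4 aged 2 months. A second experiment sequenced the hippocampus of 9 further 18-month mice, with 7 injections of plasma (5 mice) or PBS (4 mice). The labels give 2 months for the young mice, where the series text says 3.

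Trem2 is a lipid-sensing receptor of microglia that signals through the adaptor Tyrobp to the kinase Syk. Near amyloid, dying cells or damaged myelin, microglia lower their homeostatic genes and raise a set of genes for phagocytosis, lysosomal digestion and lipid handling, and the later part of that change depends on Trem2. In normal mice the same genes are known to be higher in microglia of old age, above all near white matter.

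The promoters of the members that the results turn on are shown because these genes are myeloid genes that moved together in the cerebellum, and because PU.1, the main transcription factor of microglia, and AP-1 bind short motifs. Of the 10 genes, 8 had an entry in the RefSeq promoter table (GRCm38.p6), and Tyrobp and Cd52 had none. The sequences run up to 150 bases before the transcription start, without bases that the gene annotation gives to a gene. Capitals mark GAGGAA (the core of the PU.1 box), AGGAAG (a core of the wider ETS family) and TGANTCA (AP-1), each searched on both strands. GAGGAA and AGGAAG share letters where both match, as in Trem2.
Trem2 (chr17:48346251-48346400, plus strand): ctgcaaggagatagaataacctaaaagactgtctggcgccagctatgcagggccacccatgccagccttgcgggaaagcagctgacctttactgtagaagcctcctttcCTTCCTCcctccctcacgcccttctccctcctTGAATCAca
Fcer1g (chr1:171234366-171234499, minus strand): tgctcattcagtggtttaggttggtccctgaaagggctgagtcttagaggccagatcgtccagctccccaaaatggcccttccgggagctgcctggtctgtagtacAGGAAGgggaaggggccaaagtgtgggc
Lyz2 (chr10:117282322-117282422, minus strand): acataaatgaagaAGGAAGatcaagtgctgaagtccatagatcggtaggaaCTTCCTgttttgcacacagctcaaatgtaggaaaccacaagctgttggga
Cd68 (chr11:69666171-69666320, minus strand): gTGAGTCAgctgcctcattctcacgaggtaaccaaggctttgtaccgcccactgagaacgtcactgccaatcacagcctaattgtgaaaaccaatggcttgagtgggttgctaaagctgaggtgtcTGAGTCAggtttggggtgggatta
Cst7 (chr2:150570265-150570414, plus strand): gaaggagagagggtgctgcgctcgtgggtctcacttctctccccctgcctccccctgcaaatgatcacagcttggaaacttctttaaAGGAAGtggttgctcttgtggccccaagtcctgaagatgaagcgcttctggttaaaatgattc

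The Trem2 window held all 3 motifs, Fcer1g, Lyz2 and Cst7 held the ETS core, and Cd68 held AP-1 matches only. These genes were picked by their change in the cerebellum. Of the members with an entry that are not shown, Itgax held an AP-1 match only and Clec7a held GAGGAA. Apoe held no match at starts 1 and 2 and GAGGAA at start 3. Among 32851 promoters of that table searched over the same 150 bases, 14.5% held GAGGAA, 19.7% AGGAAG, 26.2% either core and 4.24% TGANTCA. A match describes letters in the window and not a bound site.

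In GRCm38 (GENCODE M21), all 9 analysed genes are protein-coding. Trem2 lies on chromosome 17 from 48346401 to 48354147 (plus strand), Fcer1g on chromosome 1 from 171229572 to 171234365 (minus), Lyz2 on chromosome 10 from 117277331 to 117282321 (minus), Cd68 on chromosome 11 from 69664213 to 69666153 (minus) and Cst7 on chromosome 2 from 150570415 to 150578944 (plus). Tyrobp (30413760 to 30417585, plus), Apoe (19696109 to 19699188, minus) and Itgax (128129547 to 128150657, plus) lie on chromosome 7. Cd52 lies on chromosome 4 from 134082448 to 134095082 (minus), and 172 bp of its exons overlap exons of Crybg2 on the other strand. The libraries do not mark strand, so reads of those bases cannot be told apart. Lyz2 has a near-identical neighbour, Lyz1, and how the authors' counting split reads between them is not given in the sources used here.

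Levels are CPM, a gene's count as a share of its library's total scaled to 1000000, and depth ran from 851288 to 23768385 counts per library (median 8889509), with 7 libraries under 2500000. The labelled regions were checked by neuron markers: Gabra6, a granule cell gene of the cerebellum, had a median of 405 CPM there and 0 CPM in the other 2 regions, and Prox1 of dentate granule cells had 83.5 CPM in the hippocampus, 16.4 CPM in the cortex and 68.2 CPM in the cerebellum. Own-region neuron markers were low in 6 libraries of the cortex and hippocampus. The libraries are of bulk tissue, so more cells of a type and more RNA per cell cannot be told apart. Apoe alone took 0.202% of all counts and the other 8 members together 0.00608%, so counting error is small for Apoe and large for Cst7, Cd52 and Itgax.

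In young mice without injections, the cerebellum held far less of the adaptor, receptor and lysosomal transcripts than the cortex, but as much Lyz2. Fcer1g, the signalling chain of Fc receptors, had 1.64 to 2.90 CPM in the cerebellum, against 8.17 to 10.5 CPM in the cortex (log2 difference -2.10 ± 0.18 SE, edgeR adjusted p = 1.49e-16). Trem2 had 1.65 to 4.35 CPM in the cerebellum, against 9.16 to 11.1 CPM in the cortex (-1.81 ± 0.22, adjusted p = 8.90e-11). No cerebellar library reached a cortical one for either gene.

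The same was seen for Tyrobp (-1.87 ± 0.21), Cd68, a lysosomal membrane glycoprotein (-1.91 ± 0.26), and Cd52, a small surface glycoprotein of leukocytes (-2.63 ± 0.67). The share of all genes without overlap between these regions was not counted. In edgeR 5 of the 9 members were lower in the cerebellum, where 30.6% of all 19490 genes tested were lower, and none was higher. In contrast, Lyz2, the lysozyme of macrophages, had 5.50 to 9.48 CPM in the cerebellum, against 5.34 to 9.60 CPM in the cortex (-0.04 ± 0.33). Apoe, the lipid carrier made by astrocytes as well as microglia, had 1310 to 1900 CPM in the cerebellum, against 1390 to 2540 CPM in the cortex (-0.25 ± 0.19). Cst7, a cystatin that inhibits lysosomal proteases (5 counts over the 4 libraries in each region), and Itgax, the integrin CD11c (3 counts in the cerebellum and 0 in the cortex), were too low to compare.

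Of the 4 young hippocampi, 2 were low in the neuron markers of their region. The score of hippocampal neuron genes (mean log2 CPM) was 5.29 in replicate 14 and 6.26 in replicate 20, against 7.33 and 7.49 in the other pair, and replicate 14 stood at 7.01 for cortical neuron genes, where the young cortices had 6.55 to 7.37. The same 5 members were higher in the hippocampus than in the cerebellum (1.55 to 2.31 on the log2 scale), where 30.7% of all genes were. Between hippocampus and cortex, 0 of 9 members differed, with 0 at an unadjusted p under 0.05 in edgeR and 0 in DESeq2, where 12.5% of all genes passed in edgeR. Without the libraries of low region markers these counts were again 5 and 0. Here and below, percentages of all genes passing use the adjusted threshold, and no share of all genes is given at the unadjusted one. The 12 homeostatic microglia genes followed the 5 members: all 12 were lower in the cerebellum than in the cortex (median -2.03). Per base of exon, the order of levels in the young cortex was Apoe (844 ± 238 CPM per kb, SD, n = 4), Tyrobp (20.1 ± 2.23), Fcer1g (10.8 ± 1.33), Cd68 (5.88 ± 1.31), Lyz2 (5.01 ± 1.53), Trem2 (2.01 ± 0.166), Cd52 (1.13 ± 0.508) and Cst7 (0.159 ± 0.0473), with Itgax at 0. Cd68 and Lyz2 do not differ beyond their spread. In the young cerebellum the adaptor Tyrobp (5.84 ± 1.45 CPM per kb) and Lyz2 (5.43 ± 1.30) stood together, ahead of Fcer1g (2.75 ± 0.686).

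With age, the cerebellum gained transcripts of nearly the whole set. At 18 months, 7 of the 9 members were higher than at 2 months in uninjected mice, by 2.43-fold to 8.47-fold, where 1.33% of 17185 genes were higher and 1.06% lower. All 9 changes were positive, as were 51.8% of those of all genes, with a median of 1.45 on the log2 scale, against 0.01 for all genes.

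The lipid receptor and both adaptors rose together. Trem2 had 6.84, 9.30 and 6.98 CPM in 18-month cerebella, against 4.35, 3.28, 1.65 and 2.64 CPM in 2-month cerebella (1.30 ± 0.27, adjusted p = 0.00486). Its adaptor Tyrobp had 10.1, 11.8 and 7.18 CPM at 18 months, against 3.99, 5.10, 2.75 and 3.74 CPM at 2 months (1.28 ± 0.28, adjusted p = 0.00667). Fcer1g had 5.75, 7.89 and 6.18 CPM at 18 months, against 2.90, 1.64, 2.20 and 2.86 CPM at 2 months (1.45 ± 0.25, adjusted p = 6.19e-04). For all 3 genes every 18-month library lay above every 2-month library, as it did for 8.59% of all genes.

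Lyz2 and the lysosome-linked Cd68 and Cst7 rose as well, by 1.38 to 2.40 on the log2 scale. Lyz2 had 18.2, 40.4 and 17.0 CPM at 18 months, against 7.25, 9.48, 5.50 and 6.38 CPM at 2 months (1.81 ± 0.32, adjusted p = 7.78e-04). Cd68 had 3.26, 8.24 and 5.38 CPM at 18 months, against 1.99, 2.92, 1.37 and 2.20 CPM at 2 months (1.38 ± 0.32, adjusted p = 0.0127). Cst7 had 0.777, 2.35 and 0.997 CPM at 18 months, against 0.181, 0.182, 0 and 0.660 CPM at 2 months (2.40 ± 0.65, adjusted p = 0.0399), from 30 counts at 18 months and 5 at 2 months. The groups did not overlap for these 3 genes either, but the lowest 18-month library of Cd68 and of Cst7 was close to the highest 2-month one.

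Cd52 rose 8.47-fold (3.08 ± 0.63, adjusted p = 0.00397), on 8, 23 and 8 counts in the 18-month libraries, against 1, 1, 0 and 2 counts in the 2-month libraries. Its pooled ratio was 9.38, with an exact 95% interval for counting error of 3.38 to 36.1. Itgax, with 2, 16 and 3 counts at 18 months, against 0, 1, 0 and 2 at 2 months, did not pass (2.57 ± 1.07, adjusted p = 0.235), and its groups overlapped. Apoe had 2180, 2380 and 1670 CPM at 18 months, against 1740, 1900, 1310 and 1750 CPM at 2 months (0.28 ± 0.13, adjusted p = 0.285), and the groups overlapped. Apoe was thus the best counted member and had the smallest change.

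**Figure D1:**
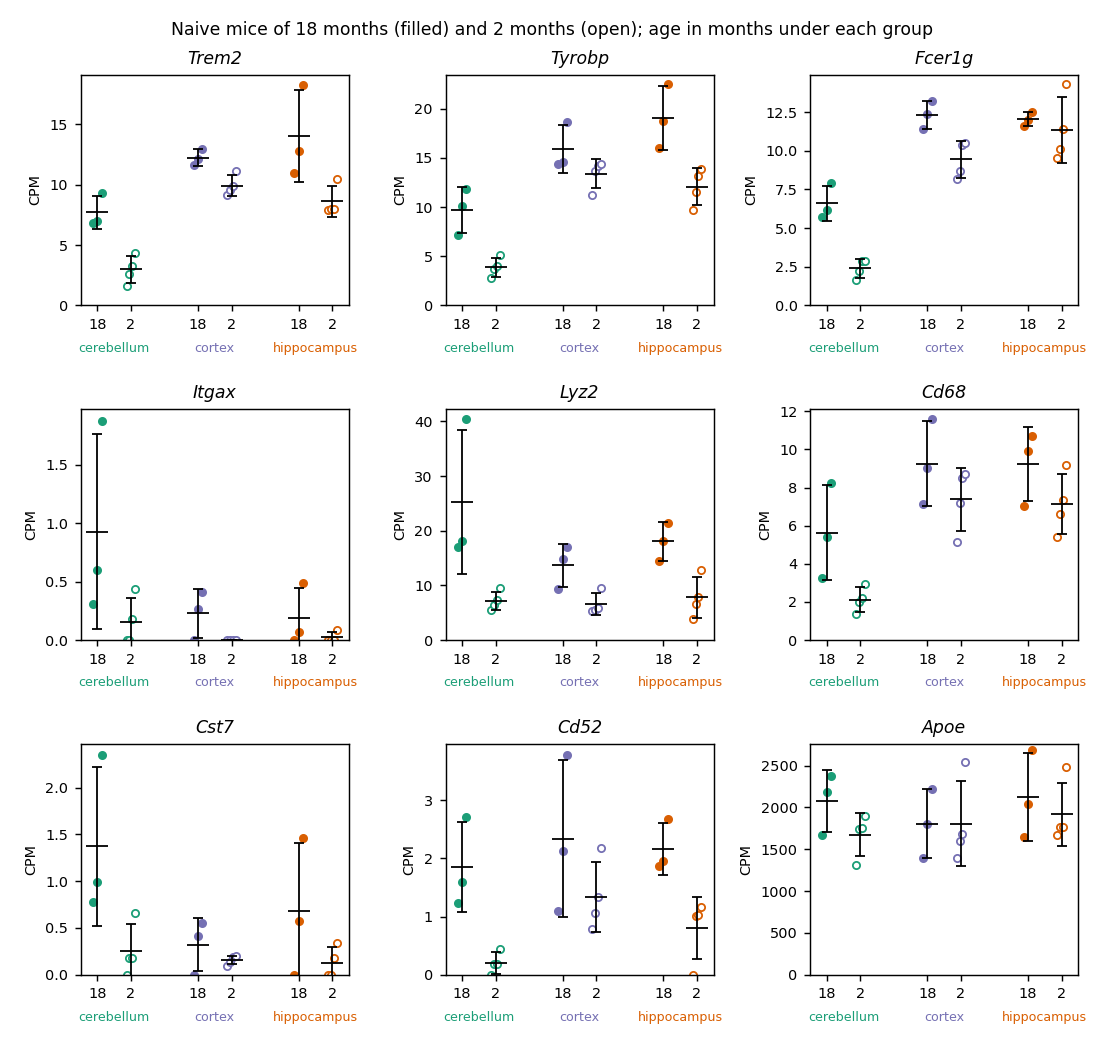
CPM of the 9 members in each library of uninjected mice (points), with mean and SD (bars), at 18 months (filled, left of each pair) and 2 months (open) in the cerebellum, cortex and hippocampus; every y axis starts at 0, which cuts off bars that would pass below it. The cerebellar groups stand apart for every member but Itgax and Apoe, as for Fcer1g with 5.75 to 7.89 CPM at 18 months against 1.64 to 2.90 CPM at 2 months.

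One mouse was high in the cerebellum and hippocampus. Of the 3 uninjected 18-month mice, replicate 6 was the highest in the cerebellum for 9 of 9 members and in the hippocampus for 8 of 9. In the cortex it was the highest for 2 of 9 members and the lowest for 3. Without it, 1 of 9 members passed in the cerebellum (Fcer1g, 1.27 ± 0.28, adjusted p = 0.0144). Lyz2 then had a change of 1.23 ± 0.32 (adjusted p = 0.0515), Trem2 1.12 ± 0.31 (adjusted p = 0.073), Tyrobp 1.10 ± 0.31 (adjusted p = 0.0873), Cd68 0.92 ± 0.35 (adjusted p = 0.261), Cd52 2.62 ± 0.73 (adjusted p = 0.073) and Cst7 1.65 ± 0.77 (adjusted p = 0.406). All 7 changes kept their sign, and 194 genes of all those tested passed in place of 411. Other mice mattered as well. Cst7 also failed to pass without the 2-month replicate 12 (2.24 ± 0.72, adjusted p = 0.128), replicate 14 (2.24 ± 0.72, adjusted p = 0.108) or replicate 17 (2.11 ± 0.66, adjusted p = 0.0922), so it passed in 3 of 7 such fits. Cd68 also failed without the 2-month replicate 12 (1.33 ± 0.36, adjusted p = 0.0511) and passed in 5 of 7.

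Markers of other cells were set beside these values. Choroid plexus markers, 7 genes with Ttr among them, summed to 1080 to 1510 CPM in the 18-month cerebella, against 25.9 to 1090 CPM in the 2-month ones. The 2-month library with the most of them (replicate 14, mean log2 CPM of 4.69 against 4.47 to 4.86 at 18 months) had 3.28 CPM of Trem2, 1.64 CPM of Fcer1g and 9.48 CPM of Lyz2, below every 18-month library. Among the 4 young cerebella, replicate 14 was the highest for Tyrobp, Apoe, Lyz2 and Cd68 and the lowest for Fcer1g. With the choroid plexus score as a covariate 6 of 9 members passed, all of the 7 but Cst7 (2.24 ± 0.70, adjusted p = 0.106). Border macrophage markers (7 genes) summed to 3.57 to 9.07 CPM at 18 months, against 4.67 to 10.2 CPM at 2 months. Those of monocytes and neutrophils (8 genes) summed to 1.18 to 2.19 CPM at 18 months, with Plac8 at 0, against 0.220 to 3.28 CPM at 2 months, with Ccr2, Ly6c2, Plac8 and Retnlg at 0. The groups overlapped for both lists.

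Homeostatic microglia genes moved the same way by less. Their sum was 213 to 226 CPM in the 18-month cerebella, against 148 to 162 CPM in the 2-month ones, and 3 of 12 passed, all higher, among them Tmem119 (0.85 ± 0.21) and the fractalkine receptor Cx3cr1 (0.70 ± 0.12), with a median of 0.52. As a percentage of that sum, Lyz2 was 11.4 ± 5.92 at 18 months, against 4.67 ± 1.25 at 2 months (SD, n = 3 and 4), Fcer1g 3.00 ± 0.488 at 18 months, against 1.55 ± 0.349 at 2 months, and Trem2 3.50 ± 0.609 at 18 months, against 1.94 ± 0.756 at 2 months. These 3 ratios were higher in every 18-month library, as was that of Cd52, at 0.584 to 1.22 at 18 months, against 0 to 0.271 at 2 months. The other 5 overlapped between the ages: Tyrobp was at 3.18 to 5.32 at 18 months, against 1.81 to 3.45 at 2 months, and Cd68 at 1.53 to 3.72, against 0.903 to 1.97 at 2 months. Cst7 was at 0.365 to 1.06 at 18 months, against 0 to 0.407 at 2 months, and Itgax at 0.146 to 0.851, against 0 to 0.271 at 2 months. Apoe, far above the sum, was at 946 ± 181 at 18 months, against 1090 ± 175 at 2 months. The share of all genes without overlap in this ratio was not counted. With the homeostatic score as a covariate 0 of 9 members passed in edgeR, and the changes were 1.54 ± 0.40 for Fcer1g (adjusted p = 0.128), 1.27 ± 0.51 for Lyz2 (adjusted p = 0.467) and 0.51 ± 0.45 for Trem2 (adjusted p = 0.845). The score did not overlap between the ages, so in that fit age and the amount of microglial RNA cannot be told apart.

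**Figure D2:**
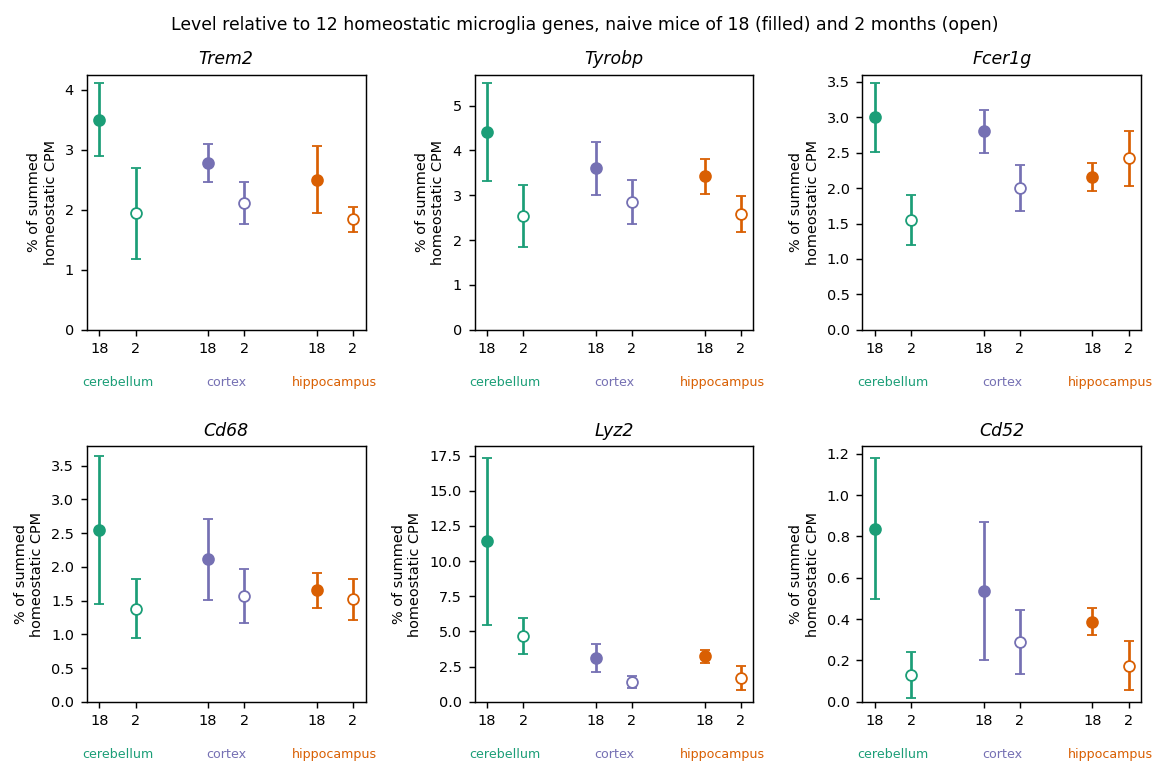
CPM of 6 members as a percentage of the summed CPM of 12 homeostatic microglia genes, as group mean and SD, at 18 months (filled, left of each pair) and 2 months (open) in uninjected mice; y axes start at 0. Lyz2 has the highest share in the cerebellum at both ages, with 11.4% at 18 months and 4.67% at 2 months.

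Other genes of the pathway changed in part. Of 21 further genes reported with microglial activation, 20 were tested in the cerebellum and 5 were higher at 18 months, among them the lectin Lgals3 (1.60 ± 0.35, adjusted p = 0.00826), the lysosomal protease Ctss (1.43 ± 0.15, adjusted p = 4.54e-07), B2m, the light chain of MHC class I (0.92 ± 0.11), and the cathepsin Ctsz (0.77 ± 0.10). The median of the 20 was 0.28. Of 12 genes that signal with or below Trem2, Tyrobp and Fcer1g, such as Syk and the Fc gamma receptors, 10 were tested and 0 passed in edgeR, with 4 at an unadjusted p under 0.05 and a median of 0.76.

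In the cortex, no member passed at 18 months against 2 months, and Lyz2 came closest. Lyz2 had 9.36, 14.8 and 17.0 CPM in 18-month cortices, against 5.92, 9.60, 5.34 and 5.51 CPM in 2-month cortices (1.08 ± 0.23, adjusted p = 0.0525). The lowest 18-month library, of 1815609 counts, fell just under the highest 2-month one. Of 8 members tested 0 passed in edgeR, 3 had an unadjusted p under 0.05, and 1 passed in DESeq2 (Lyz2), where 0.112% of all genes passed in edgeR. Lyz2 also passed without the 2-month replicate 14, without the 18-month replicate 3, with no filter on low counts, without libraries of low region markers and with the homeostatic score as a covariate, so its call in the cortex depends on these settings.

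Fcer1g and Trem2 had cortical groups that did not overlap, as did 3.53% of all genes in the higher direction. Fcer1g had 11.4 to 13.2 CPM in 18-month cortices, against 8.17 to 10.5 CPM in 2-month ones (0.35 ± 0.13, adjusted p = 0.639). Trem2 had 11.6 to 13.0 CPM at 18 months, against 9.16 to 11.1 CPM at 2 months (0.29 ± 0.18, adjusted p = 0.886). Both differences were small, and homeostatic genes summed to 418 to 467 CPM at 18 months, against 432 to 531 CPM at 2 months. Itgax was not tested in the cortex: its 3 libraries of 18 months held 8 counts and its 4 libraries of 2 months held 0. With 3 counts over the 2-month group as a floor, the pooled level was 4.13-fold higher at 18 months. Of the 8 counts, 7 came from 1 library, and another library held 0.

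In the hippocampus all 7 members tested had positive changes, as 47% of all genes did, and 0 passed in edgeR, where 0.0719% of all genes passed. The median was 0.66, and 4 had an unadjusted p under 0.05, a threshold for which the share of all genes is not given. Tyrobp had 16.0, 22.5 and 18.8 CPM in 18-month hippocampi, against 13.9, 11.5, 9.69 and 13.2 CPM in 2-month hippocampi (0.66 ± 0.15, adjusted p = 0.157), and passed in DESeq2, the only member to do so. Trem2 had 11.0, 18.3 and 12.8 CPM at 18 months, against 7.93, 8.03, 7.99 and 10.5 CPM at 2 months (0.72 ± 0.18, adjusted p = 0.248). Lyz2 had 14.5, 21.5 and 18.1 CPM at 18 months, against 12.9, 7.85, 3.86 and 6.61 CPM at 2 months (1.17 ± 0.32, adjusted p = 0.295).

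These 3 genes and Cd52 had groups that did not overlap, as 4.52% of all genes did in that direction. Fcer1g was different: it had 11.6 to 12.5 CPM at 18 months, inside the 9.51 to 14.3 CPM of the 2-month hippocampi (0.10 ± 0.16). The highest 2-month value of Fcer1g came from replicate 20, a library of 1816018 counts and low region markers. Homeostatic genes summed to 523 to 584 CPM in 18-month hippocampi, against 445 to 491 CPM in 2-month ones, without overlap, and their part in these changes cannot be told apart from age. Cst7 held 14 counts at 18 months and 6 at 2 months, Itgax 3 at 18 months and 1 at 2 months, and neither was tested there. Among the further activation genes Ctss (0.77 ± 0.13, adjusted p = 0.00781) was higher at 18 months in the hippocampus.

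Whether the age change differed between regions was tested as an interaction over all libraries of the first experiment. Fcer1g was the member that passed: its age change was smaller in the hippocampus than in the cerebellum by 1.34 ± 0.26 on the log2 scale (difference of -1.34, adjusted p = 0.00977), and 0.0513% of all 19490 genes passed. It did not pass without the 18-month replicate 6 (adjusted p = 0.173), the 18-month replicate 9 (adjusted p = 0.144) or the 2-month replicate 14 (adjusted p = 0.0966), and with the mouse as a block the difference was -1.38 ± 0.25 (adjusted p = 0.00641). Cortex minus cerebellum gave -1.10 ± 0.26 for Fcer1g (adjusted p = 0.114), -1.09 ± 0.31 for Tyrobp and -1.02 ± 0.32 for Trem2. Of the 9 members 0 passed in edgeR or DESeq2, where 0.041% of all genes passed in edgeR. At an unadjusted p under 0.05 there were 5, a threshold for which the share of all genes is not given. For Lyz2 the differences from the cerebellum were -0.72 ± 0.45 in the cortex and -0.62 ± 0.44 in the hippocampus (adjusted p = 0.995 and 0.732). Between hippocampus and cortex 0 of 9 passed in edgeR and DESeq2, and 0 had an unadjusted p under 0.05, with 0% of all genes passing.

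PBS-injected mice of 22 and 18 months were compared as a second pair of ages. In the cerebellum 8 of 9 changes were positive, as were 47.9% of those of all genes, with a median of 0.61. Lyz2 had 31.1, 31.1 and 34.2 CPM at 22 months, against 18.5, 24.8, 16.0 and 19.0 CPM at 18 months (0.66 ± 0.26, adjusted p = 0.209). Cst7 had 1.85, 1.74 and 1.07 CPM at 22 months, against 0, 0.871, 0.719 and 0.291 CPM at 18 months (1.54 ± 0.50, adjusted p = 0.129), from 45 counts at 22 months and 13 at 18 months. The Cst7 value of 0 was that of PBS replicate 2, a shallow library of 1029695 counts. Every 22-month library was above every 18-month one for Lyz2, Cst7 and Trem2, as it was for 8.93% of all genes. For these genes the 22-month values lay inside the range of naive 18-month cerebella, as for Lyz2 with 17.0 to 40.4 CPM in naive mice. The top of each naive range was replicate 6. In edgeR 0 of 9 members passed, where 0.157% of all genes did, and 0 passed in DESeq2. At an unadjusted p under 0.05 there were 4, a threshold for which the share of all genes is not given. Lyz2 passed when the 2 groups were fitted alone. The homeostatic genes also stood apart, with a sum of 237 to 256 CPM at 22 months, against 176 to 215 CPM at 18 months. As a percentage of that sum, Trem2 was 3.33 ± 0.451 at 22 months, against 3.30 ± 0.117 at 18 months (SD, n = 3 and 4), and Lyz2 13.0 ± 0.463 at 22 months, against 9.97 ± 1.49 at 18 months. Beside them the homeostatic gene Cx3cr1 (0.51 ± 0.11) and the cathepsin Ctsd (0.35 ± 0.07) were higher at 22 months, and choroid plexus markers summed to 1040 to 1300 CPM at 22 months, against 45.6 to 1210 CPM at 18 months.

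In the cortex 0 of 8 members passed between 22 and 18 months (0 at an unadjusted p under 0.05, 0 in DESeq2, 0.00533% of all genes), and in the hippocampus 0 of 7 (2 at an unadjusted p under 0.05, 0 in DESeq2, 0% of all genes). Fcer1g and Lyz2 had hippocampal groups without overlap, as 4.22% of all genes did in that direction. Fcer1g had 13.3 to 14.5 CPM at 22 months, against 9.51 to 11.3 CPM at 18 months (0.43 ± 0.15, adjusted p = 0.528), and Lyz2 had 11.8 to 26.7 CPM at 22 months, against 8.30 to 11.3 CPM at 18 months (0.79 ± 0.30, adjusted p = 0.558). Itgax was in single counts at 18 months and higher at 22 months in both regions. It held 17 counts at 22 months against 1 at 18 months in the cortex (pooled ratio 12.4, exact 95% interval 1.95 to 520) and 10 at 22 months against 1 at 18 months in the hippocampus (11.4, 1.62 to 493), without a test over mice.

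The injections themselves were compared at 18 months, PBS against no injection. These PBS mice are also the ones set against 22 months above and against plasma below, and the naive mice are those of the age comparison. In the cerebellum 8 of 9 changes were negative, where 50% of all genes had positive ones. Cst7 had 13 counts in PBS cerebella, against 30 in naive ones (-1.40 ± 0.53, adjusted p = 1), and Itgax 9 with PBS, against 21 in naive ones (-1.40 ± 0.85). Naive replicate 6 alone held 20 of the 30 counts of Cst7 and 16 of the 21 of Itgax, and the other naive mice had 0.777 and 0.997 CPM of Cst7, against 0 to 0.871 CPM with PBS. In the cortex all 8 were negative, where 48.6% of all genes had positive ones, and Fcer1g had 8.94 to 9.77 CPM in PBS cortices, against 11.4 to 13.2 CPM in naive ones (-0.38 ± 0.13, adjusted p = 1). Tyrobp was also without overlap there, at 12.0 to 13.0 CPM with PBS, against 14.4 to 18.7 CPM in naive mice.

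In the hippocampus Lyz2 had 8.30 to 11.3 CPM with PBS, against 14.5 to 21.5 CPM in naive mice (-0.83 ± 0.31, adjusted p = 1), Fcer1g 9.51 to 11.3 CPM with PBS, against 11.6 to 12.5 CPM in naive mice, and Cd52 0.255 to 1.43 CPM with PBS, against 1.86 to 2.68 CPM in naive mice (-1.10 ± 0.47, adjusted p = 1). Groups without overlap in the lower direction made up 2.37% of all genes in the cortex and 3.85% in the hippocampus. No member passed in any region: of 9, 8 and 7 tested in the cerebellum, cortex and hippocampus, 0 passed in edgeR and in DESeq2, with 1, 1 and 3 at an unadjusted p under 0.05 and 0% of all genes passing. Homeostatic genes were also mostly lower with PBS, with a median of -0.16 for the cerebellum, -0.19 for the cortex and -0.12 for the hippocampus.

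**Figure D3:**
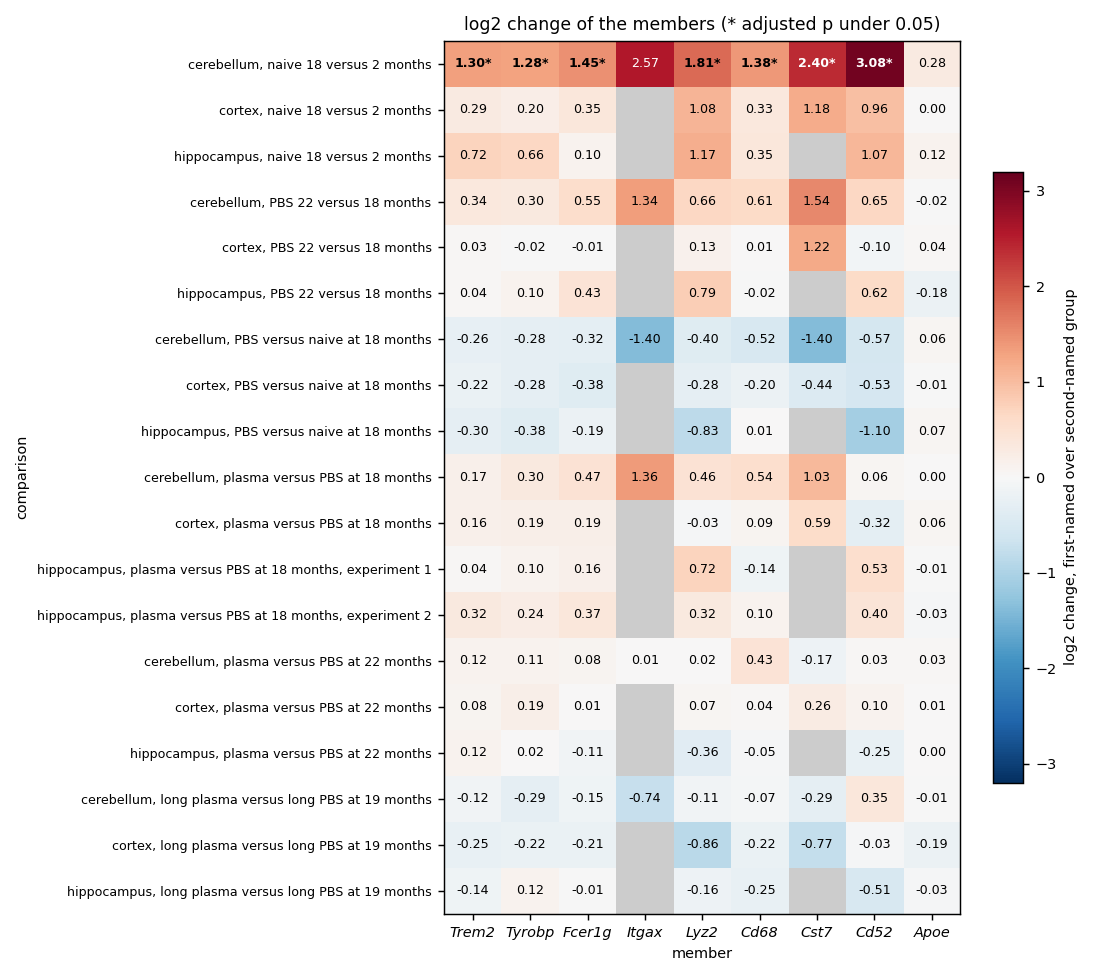
Log2 change of each member (columns) in the 19 comparisons within a region (rows), first-named over second-named group, with blue below 0 and red above; grey cells were not tested and an asterisk marks an edgeR adjusted p under 0.05. The 7 asterisks all stand in the row of cerebella of 18 against 2 months, from 1.28 for Tyrobp to 3.08 for Cd52.

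The series' main question, plasma of young mice against PBS, was asked of the members in each region. After 7 injections at 18 months, no member passed in any region: 0 of 9, 8 and 7 in the cerebellum, cortex and hippocampus in edgeR and in DESeq2, with 2, 0 and 1 at an unadjusted p under 0.05, where 0% of all genes passed. In the cerebellum 8 of 9 changes were positive, as were 49.4% of those of all genes, with a median of 0.46. Fcer1g had 9.19, 5.94, 10.1, 8.21 and 5.54 CPM in plasma cerebella, against 6.80, 5.66, 4.85 and 5.33 CPM in PBS ones (0.47 ± 0.19, adjusted p = 1). Cd68 had 8.58, 4.81, 6.90, 4.62 and 4.90 CPM with plasma, against 4.86, 4.07, 2.16 and 5.23 CPM with PBS (0.54 ± 0.25, adjusted p = 1). The groups overlapped for both, and Apoe was level (0.00 ± 0.11).

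Lyz2 in the cerebellum had 49.2, 24.5, 16.7, 24.1 and 19.9 CPM with plasma, against 18.5, 24.8, 16.0 and 19.0 CPM with PBS (0.46 ± 0.24, adjusted p = 1). The value of 49.2 CPM, of plasma replicate 1, is the highest Lyz2 level of the series, and the same library was the highest of its group for Trem2, Tyrobp, Cst7 and Cd68. It was also the highest of its group for the scores (mean log2 CPM) of lymphocyte markers, at -0.79, against -1.91 to -1.71 in the other plasma cerebella, and of erythroid markers, at 3.65. For monocyte and neutrophil markers its score was -0.53, below the -0.38 of plasma replicate 4, which had 24.5 CPM of Lyz2. The part of these cells in the Lyz2 level was not tested. In the cortex Lyz2 had 10.1 to 13.8 CPM with plasma, against 11.1 to 12.6 CPM with PBS (-0.03 ± 0.19). In the hippocampus of the first experiment it had 19.0, 16.3, 23.6, 14.5 and 10.0 CPM with plasma, against 10.7, 10.4, 8.30 and 11.3 CPM with PBS (0.72 ± 0.27, adjusted p = 1), with 1 plasma library inside the PBS range. Monocyte and neutrophil markers (8 of 8 with counts with plasma, 5 of 8 with PBS, where Plac8, Ngp and Camp were at 0) summed to 0 to 3.02 CPM with plasma (median 2.61), against 0 to 1.28 CPM with PBS (median 0.453). Their score was up to -0.90 in 4 plasma mice, each above every PBS mouse (-2.21 to -1.65), and -2.21 in plasma replicate 13, the one inside the Lyz2 range. The part of these cells in the result was not tested. No member's plasma change differed between regions (0 of 9 in edgeR and DESeq2 for each of the 3 pairs of regions, with at most 1 at an unadjusted p under 0.05, and 0% of all genes).

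The second experiment repeated 7 injections at 18 months in the hippocampus of other mice. Fcer1g had 12.3, 12.6, 13.7, 14.0 and 11.2 CPM with plasma, against 10.3, 10.8, 10.1 and 9.35 CPM with PBS (0.37 ± 0.11, adjusted p = 0.578), without overlap, as for 0.66% of all genes in that direction. In the first experiment the plasma and PBS hippocampi overlapped for Fcer1g (0.16 ± 0.13). Lyz2 had 13.1 to 25.7 CPM with plasma, against 8.94 to 19.4 CPM with PBS (0.32 ± 0.24, adjusted p = 0.785). The score of monocyte and neutrophil markers in these mice was -1.77 to -0.77 with plasma, against -2.12 to -0.32 with PBS. It thus did not stand higher with plasma as in the first experiment, and its part in the Lyz2 level was not tested. Trem2 had 10.4 to 14.4 CPM with plasma, against 8.77 to 11.1 CPM with PBS (0.32 ± 0.13, adjusted p = 0.604).

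In 1 fit of both experiments the changes were 0.27 ± 0.09 for Fcer1g (adjusted p = 0.319), 0.49 ± 0.18 for Lyz2 (adjusted p = 0.363), 0.19 ± 0.11 for Trem2 and -0.02 ± 0.09 for Apoe. Of 7 members 0 passed in the second experiment and 0 in both together (edgeR and DESeq2, 2 at an unadjusted p under 0.05 in each, 0% of all genes). Choroid plexus markers were uneven in the second experiment, with sums of 48.4 to 2580 CPM with plasma (median 1420), against 35.6 to 3140 CPM with PBS (median 67.6), and their part in the Fcer1g values was not tested.

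Itgax was the member with the most uneven plasma counts. In pooled counts at 18 months it held 34 with plasma against 9 with PBS in the cerebellum (ratio 2.81, exact 95% interval 1.32 to 6.66) and 17 with plasma against 3 with PBS in the hippocampus of the second experiment (4.77, 1.38 to 25.4). The intervals cover counting error only. By library, the 34 counts were 9, 1, 2, 0 and 22 with plasma, against 0, 6, 2 and 1 with PBS, and the 17 counts came from 2 of 5 plasma mice, so the mice overlapped (1.36 ± 0.78, adjusted p = 1 in the cerebellum).

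At 22 months no member differed past the threshold between plasma and PBS. Lyz2 had 35.3, 29.4 and 33.8 CPM in plasma cerebella, against 31.1, 31.1 and 34.2 CPM in PBS cerebella (0.02 ± 0.26), and Fcer1g had 7.98 to 8.82 CPM with plasma, against 6.13 to 10.1 CPM with PBS (0.08 ± 0.20). Over the 3 regions 0 of 9, 8 and 7 members passed in edgeR and in DESeq2, with 0 at an unadjusted p under 0.05 and 0% of all genes. The widest difference was that of Cd68 in the cerebellum, with 4.56, 8.62 and 8.91 CPM with plasma, against 6.87, 6.35 and 5.07 CPM with PBS (0.43 ± 0.26, adjusted p = 1), where the groups overlapped. The 4.56 CPM was 4 counts of plasma replicate 16, a shallow library of 877031 counts. The same library gave the 35.3 CPM of Lyz2, from 31 counts. Positive changes were found in 8 of 9, 8 of 8 and 2 of 7 members in the cerebellum, cortex and hippocampus, and in 52.8%, 50% and 48.7% of all genes.

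After 24 injections at 19 months, no member passed, and most changes were below 0. In the cortex all 8 changes were negative, where 48.1% of all genes had positive ones. Lyz2 had 9.83, 9.99 and 8.49 CPM with long plasma, against 25.7, 17.7, 14.5 and 12.3 CPM with long PBS (-0.86 ± 0.22, unadjusted p = 4.40e-04, adjusted p = 1), without overlap, as for 4.32% of all genes in that direction. The highest PBS value, replicate 24, was also the highest of its group for 7 of 9 members. Homeostatic genes summed to 341 to 433 CPM with long plasma, against 416 to 475 CPM with long PBS. Lymphocyte markers (1 of 7 with counts with long plasma, 5 of 7 with long PBS) summed to 0 to 0.161 CPM with long plasma, against 0.381 to 0.900 CPM with long PBS. The score of monocyte and neutrophil markers was -1.74 to -1.53 with long plasma, against -1.82 to -1.14 with long PBS. Its lowest value, -1.82, was that of long PBS replicate 24. The part of these cells in the Lyz2 difference was not tested.

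In the cerebellum 8 of 9 changes were negative and in the hippocampus 6 of 7, where 50.7% and 49.2% of all genes had positive ones. Lyz2 had 19.4 to 25.2 CPM with long plasma, against 20.0 to 32.5 CPM with long PBS in the cerebellum (-0.11 ± 0.26), and 9.37 to 18.0 CPM with long plasma, against 12.1 to 19.7 CPM with long PBS in the hippocampus (-0.16 ± 0.29). Over the 3 regions 0 of 9, 8 and 7 passed in edgeR and DESeq2, with 0, 1 and 0 at an unadjusted p under 0.05 and 0% of all genes. In the hippocampus choroid plexus markers summed to 52.2 to 4960 CPM with long plasma, against 21.3 to 2670 CPM with long PBS.

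**Figure D4:**
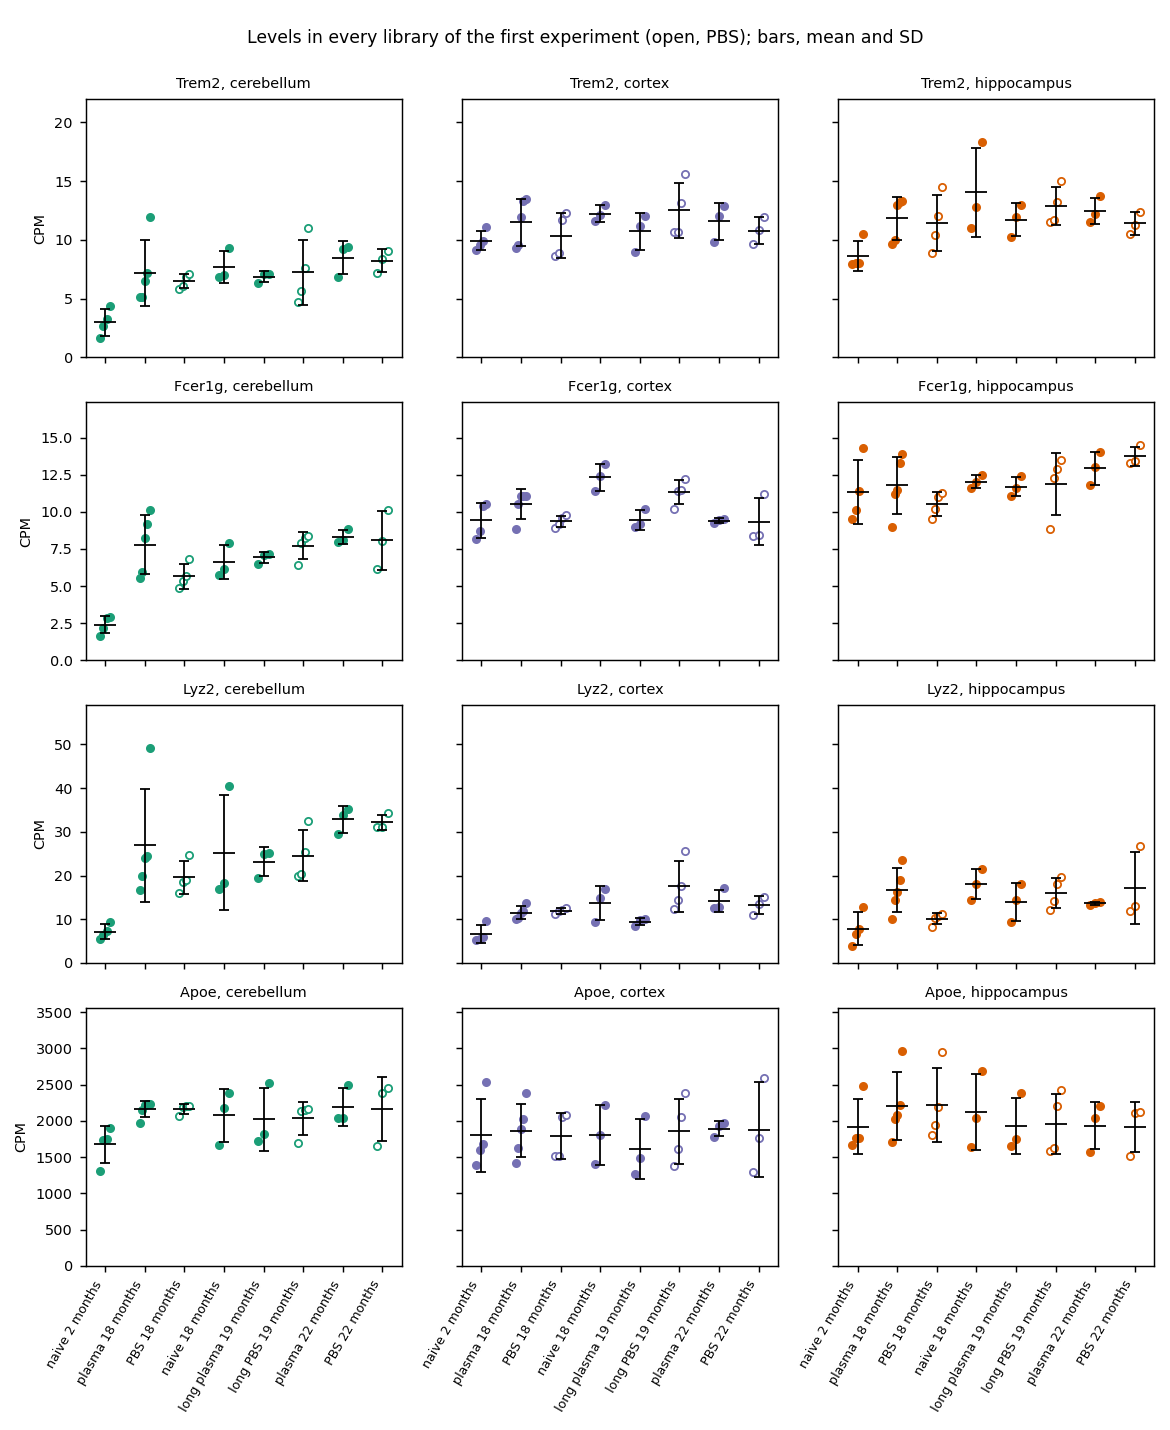
CPM of Trem2, Fcer1g, Lyz2 and Apoe (rows) in every library of the first experiment, by region (columns) and group, with PBS groups open and the others filled; bars give mean and SD, and y axes start at 0. Within the cerebellum the 2-month mice have the lowest group mean for Trem2, Fcer1g, Lyz2 and Apoe. For Apoe that mean is 1680 CPM, against 2020 to 2190 CPM in the other cerebellar groups. Its libraries lie between 1270 and 2970 CPM in all groups and regions.

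Across all groups the members fell into 3 patterns of level. Trem2, Tyrobp, Fcer1g and Cd68 had lower medians in the cerebellum (6.84, 9.50, 6.80 and 5.13 CPM over 29 libraries) than in the cortex (11.2, 13.7, 10.2 and 8.29 CPM) and hippocampus (11.6, 15.7, 11.7 and 8.49 CPM over 38 libraries). Lyz2, Itgax and Cst7 had the reverse order, with cerebellar medians of 24.1, 0.575 and 0.990 CPM, against 11.9, 0.0738 and 0.403 CPM in the cortex. Apoe and Cd52 had similar medians everywhere (2150, 1780 and 2150 CPM for Apoe, and 1.34, 1.51 and 1.15 CPM for Cd52, in cerebellum, cortex and hippocampus). Itgax had 0 counts in 6 of 29 cerebellar, 14 of 29 cortical and 16 of 38 hippocampal libraries.

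The genes whose pattern was most like each member's were sought among 11711 candidates with a mean of at least 5 CPM, by Pearson's r over the 24 group means of log2 CPM, each region centred on its mean. The receptor and adaptor genes were followed by complement C1q chains and cathepsin S: Trem2 by Ctss (0.98) and C1qb (0.97), Tyrobp by C1qa (0.97), Fcer1g by C1qa (0.95) and C1qc (0.94), and Cd68 by C1qa (0.93) and the checkpoint receptor Lag3 (0.91). Lyz2 was followed by other genes, the MHC class I heavy chain H2-K1 (0.94), the NADPH oxidase subunit Cyba (0.92) and the cathepsin Ctsz (0.92), and Cd52 by the interferon-induced Ifit3 (0.89). Apoe stood apart: its closest genes were Tef (0.80), a clock-linked transcription factor, and Pik3ip1 (0.79), and its r with the other 6 members tested in every region was 0.48 to 0.67.

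Without the young cerebella, over 23 group means, Trem2 with Ctss was 0.93, Tyrobp with C1qa 0.90, Trem2 with Tyrobp 0.76 in place of 0.92, and Apoe with Fcer1g 0.05 in place of 0.57. These values describe group means that share libraries across genes, and every one of them was lower without the young cerebella.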

How the data were processed

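RNA of the cerebellum, cortex and hippocampus was extracted with an RNeasy kit and made into libraries with Smart-Seq2 and Nextera XT, per the labels' protocols, a method that does not mark strand. The authors deposited a table of read counts per gene symbol, which was used as deposited. The submitters' processing notes name Trim Galore 0.3.7, STAR 2.5.3a, DESeq2 and the build GRCm38, and the counting tool and annotation are not given in the sources used here. Library totals ran from 851288 to 23768385 counts.

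CPM is a count over its library's total, times 1000000. Genes were kept by filterByExpr (minimum count 10, minimum total 15), scaled by TMM and tested with edgeR 4.0.16 (quasi-likelihood, Benjamini-Hochberg adjustment over all genes, threshold 0.05) in R 4.3.3 with limma 3.58.1, in 1 fit per region over all groups of an experiment, or in 1 fit over the regions for differences between them. The steps were tested on simulated data. Percentages of all genes passing use the adjusted threshold, so they are no background for counts of members at an unadjusted p under 0.05. Alternatives were DESeq2 1.42.0, another scaling, no filter, fits of the compared groups alone, marker scores (mean log2 CPM, prior count 2) as covariates, left-out libraries and a mouse block. A library counted as shallow under 2500000 counts.

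Replicates are separate mice, per the labels, and an animal number shared across regions marks the same mouse. A further number in the titles has no stated meaning. Some plasma and PBS mice of the same age share it (at 18 months plasma replicates 10 and 13 with PBS 11, at 22 months plasma 16, 19 and 22 with PBS 21), and the naive and the 19-month groups each have one of their own. Groups were compared without it. For plasma against PBS at 18 months in the first experiment, leaving out the mice of the shared number left 0 members passing in each region. Groups of different age, PBS and naive mice, and the 19-month groups share no number, so it cannot be told apart from those differences. For plasma against PBS at 22 months its part was not tested. Intervals for pooled counts (exact, 95%) and the floor of 3 counts cover counting error only. No 2 libraries held identical values. The text names the 10 genes of the list, up to 4 called genes of each other list and comparison by size of change (some are not reported here), and for each member the 3 genes of most similar group means. The members and lists were chosen with earlier results of these data known. Promoter sequences are RefSeq's.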

Additional observations from a re-analysis of the deposited data

Results flagged for a closer look

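In groups of 4 or 5 mice, single libraries that lay far from the rest of their group were sought for 9 members in 125 combinations of member and group. Chance flags about 1 in 20 such groups, and 14 libraries were found. No explanation was tested for any of them.

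Lyz2 had 49.2 CPM in the cerebellum of the plasma 18-month replicate 1, against 16.7 to 24.5 CPM in the others, and 9.60 CPM in the cortex of the naive 2-month replicate 14, against 5.34 to 5.92 CPM. Tyrobp had 9.64 CPM, from 16 counts, in the hippocampus of the plasma 18-month replicate 4, against 15.6 to 17.3 CPM. Fcer1g had 8.81 CPM in the cortex of the same mouse, against 10.5 to 11.1 CPM.

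The hippocampus of the naive 2-month replicate 20, a shallow library with low region markers, stood apart for 3 members: Trem2 with 10.5 CPM, against 7.93 to 8.03 CPM, Apoe with 2480 CPM, against 1670 to 1770 CPM, and Cd52 with 0 CPM, against 1.01 to 1.17 CPM. Apoe also had 1690 CPM in the cerebellum of the long PBS replicate 26, against 2140 to 2160 CPM, and 2070 CPM in that of the PBS 18-month replicate 2, against 2190 to 2210 CPM. Cd68 had 11.0 CPM in the hippocampus of the long PBS replicate 26, against 9.54 to 9.69 CPM.

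Itgax was flagged where a single library of a group held any count: 0.0817 CPM (1 count) in the cortex of the PBS 18-month replicate 2, 0.0737 CPM (1 count) in the hippocampus of the PBS 18-month replicate 11, 0.0897 CPM (1 count) in that of the naive 2-month replicate 17, and 0.371 CPM (3 counts) in that of the PBS replicate 69 of the second experiment.

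The age change of Fcer1g differed between regions, by -1.34 on the log2 scale in the hippocampus relative to the cerebellum, in the test of that difference.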

How the results depend on the processing

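Counts of members that passed were set beside those of the main fit over 29 comparisons, most of which had a main count of 0. Of 206 counts under other settings, 199 were the same or near, 6 rose from 0 and 1 fell to 0. Of 216 counts with a mouse or library left out, 210 were the same or near and 2 rose from 0. A further 3 fell to 0, and 1 fell from 7 to 1. In the cerebellum at 18 against 2 months, 7 members passed, 0 with the homeostatic score as a covariate, and 1 to 7 with each mouse left out, the 1 being without the 18-month replicate 6. In the cortex 1 member (Lyz2) passed under DESeq2, with no filter, without libraries of low region markers and with the homeostatic score, and 0 to 1 with each mouse left out. In the hippocampus 1 (Tyrobp) passed under DESeq2. For PBS cerebella of 22 against 18 months 1 (Lyz2) passed when the groups were fitted alone. For the age change in hippocampus minus cerebellum, 1 passed, and 0 to 1 with each mouse left out. Beyond the construction of each setting, the cause was not tested.

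With the mouse as a replicate block across regions, 5 members passed for cerebellum against cortex, 6 for hippocampus against cerebellum (5 without it), 0 for hippocampus against cortex and 1 for the age change in hippocampus minus cerebellum, and no called change was lost. Depth limits Itgax, Cst7 and Cd52, which stood at single counts in many libraries.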
